A study of Glycine max with 2 samples.

Results

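Of the 3527 differentially methylated regions (DMRs) found between the soybean cytoplasmic male-sterile (CMS) line NJCMS5A and its maintainer NJCMS5B, 750 lay on scaffold_21, a sequence of the Williams 82 genome that is not placed on a chromosome. The 541 intergenic DMRs among these 750 are described here. They were chosen as the DMRs of scaffold_21 that the deposited annotation listed with no gene, which means that they overlapped no promoter (2 kb upstream of a gene), UTR, exon or intron. The other 209 DMRs of scaffold_21 were listed with 129 genes. The rule used position only and no methylation value.

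Genomic DNA was taken from flower buds of different sizes at the full-bloom stage, pooled from plants of each line, and measured by whole-genome bisulfite sequencing, in which unmethylated cytosines are read as thymine. NJCMS5A is male sterile, and carries the cytoplasm of the CMS line NJCMS1A in the nuclear background of Wandou 28, its recurrent parent. Wandou 28 is NJCMS5B, the fertile line that maintains NJCMS5A. Each line was 1 library, so a difference below is one between 2 libraries, and no spread between plants or buds can be given.

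Cytosines of plant DNA are methylated in the CG, CHG and CHH contexts, where H stands for A, C or T. CG and CHG methylation is copied after replication by maintenance methyltransferases, and CHH methylation is placed anew, in part by the RNA-directed DNA methylation pathway. In intergenic DNA, methylation in these contexts is best known for silencing transposable elements. The deposited table joins the 3 contexts into 1 level per DMR, so a level below is the share of all cytosine calls of a DMR that were methylated, and none can be assigned to a context.

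The 541 DMRs lay between positions 6565 and 3564839 of scaffold_21, at 152 per Mb, and covered 808 kb or 22.7% of that span. Their median length was 1296 bp (quartiles 997 and 1895, range 37 to 4691 bp), with a median of 297 cytosines (range 10 to 1115). Depth, the mean number of calls per cytosine, had a median of 11.6 in NJCMS5A (range 5.30 to 25.2) and 10.7 in NJCMS5B (range 5.0 to 288). Summed over the DMRs, the levels rest on 2026691 calls in NJCMS5A and 2046892 in NJCMS5B. With so many calls a level is known closely as far as counting goes, but calls of neighbouring cytosines come from the same reads, and the 95% intervals given below cover counting error only.

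In 293 of the 541 intergenic DMRs the level was lower in NJCMS5A (54.2%, Wilson 95% interval 49.9 to 58.3%), and in 248 it was higher. All 541 passed a two-sided Fisher's exact test at an adjusted p of 0.05 (Benjamini-Hochberg over the 3527 DMRs, largest adjusted p 0.00890). This pass is a property of the table, since only DMRs that the authors had called were deposited. Over all DMRs, 55.8% passed with a lower and 44.2% with a higher level in NJCMS5A, so the intergenic DMRs of scaffold_21 were near this background in both directions. When each cytosine was counted once in place of each call, 271 of the 541 passed with a lower and 229 with a higher level. Of all 3527 DMRs, 1628 (46.2%) and 1292 (36.6%) passed. The 41 intergenic DMRs that did not pass with this counting were small, with 10 to 94 cytosines and a median of 29.0. The median was 297 cytosines over all 541 and 215 over all 3527 DMRs, so the shares that passed are not on equal footing.

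The hypo-methylated DMRs (lower in NJCMS5A) had a median level of 11% in NJCMS5A (quartiles 7.76 and 14.4%) and 26.3% in NJCMS5B (quartiles 21.2 and 32.4%). The hyper-methylated DMRs were close to a mirror image, with a median level of 23.6% in NJCMS5A (quartiles 19.0 and 30.8%) and 10.4% in NJCMS5B (quartiles 5.42 and 13.7%). Levels summed over the calls of all 541 DMRs were 16.2% in NJCMS5A and 16.8% in NJCMS5B. The sum hides the differences between the DMRs, because those of opposite direction nearly offset each other.

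**Figure D1:**
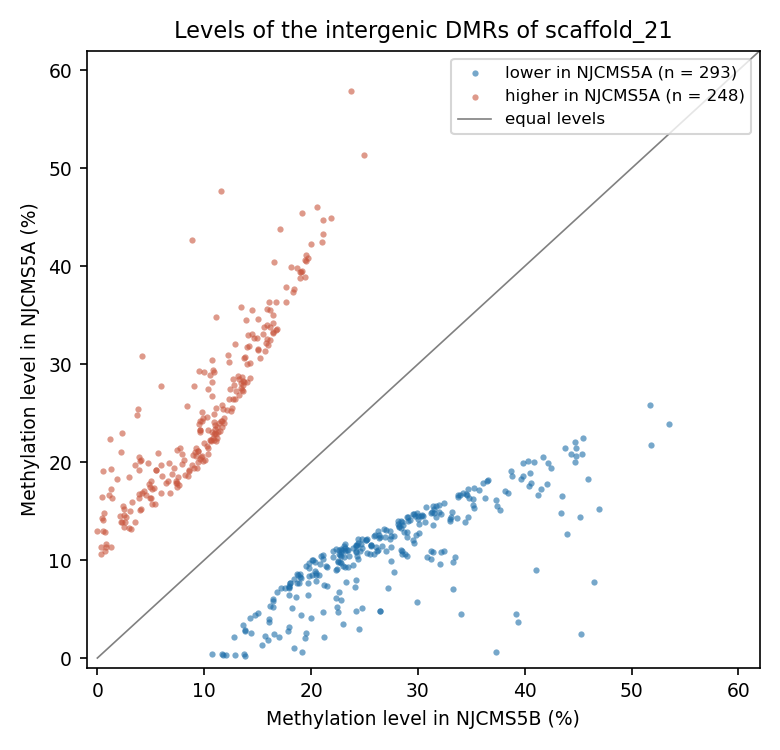
Methylation level of each intergenic DMR of scaffold_21 in NJCMS5B (horizontal axis, %) and NJCMS5A (vertical axis, %), with 1 point per DMR and the line of equal levels. The 293 DMRs lower in NJCMS5A lie below the line and the 248 higher ones above it, and no point lies near the line because every called DMR differed by at least 10.03 percentage points and 2.0-fold.

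The median size of the level difference was 14.7 percentage points. No DMR was under 10.03 points or under a ratio of 2.0, 124 were under 12 points, 95 reached 20 points and 13 reached 30 points. Of the 95 DMRs that reached 20 points, 61 were lower and 34 were higher in NJCMS5A. The median size was 17.9 points in the 45 DMRs with fewer than 50 cytosines, 14.0 points in the 244 with 200 to under 400 and 14.9 points in the 160 with at least 400. High levels were rare: 48 DMRs reached 40% in the higher library and 5 reached 50%. At the other end, 22 DMRs were under 1% in the lower library. Levels were not corrected for unconverted cytosines, which count as methylated, and the study reported a lower conversion rate for NJCMS5B than for NJCMS5A. The part of unconverted cytosines in levels near 1%, and in ratios that rest on them, was not tested.

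The largest decrease was in the last DMR of the scaffold, scaffold_21:3561636-3564839, with 423 cytosines in 3204 bp. Its level was 2.44% in NJCMS5A (2.06 to 2.89%) and 45.3% in NJCMS5B (44.7 to 45.9%), a difference of -42.9 points (-43.6 to -42.1). Its depth was 12.5 in NJCMS5A but 65.3 in NJCMS5B, and it lay 1327 bp from a hypo-methylated DMR of Glyma.U022100. The part of this depth in the level was not tested.

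Among the 284 DMRs whose depth was 10 or more in each library and that held 100 or more cytosines, the next largest decreases both lay near the start of the scaffold, at ordinary depths. The level of scaffold_21:110968-113859 (500 cytosines) was 8.99% in NJCMS5A (8.32 to 9.71%) and 41.1% in NJCMS5B (39.8 to 42.5%), with depths of 13.0 and 10.2. The level of scaffold_21:82966-85462 (503 cytosines) was 4.51% in NJCMS5A (4.03 to 5.04%) and 34.0% in NJCMS5B (32.8 to 35.3%), with depths of 12.9 and 10.5. Between these DMRs lay the largest increase among the 284, scaffold_21:94165-97155 (645 cytosines), with 25.4% in NJCMS5A (24.3 to 26.4%) and 3.76% in NJCMS5B (3.36 to 4.22%). DMRs with large differences of opposite sign thus lay close together.

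The other decreases named by size were smaller. At scaffold_21:1047821-1048941 the level was high in both libraries, 25.8% in NJCMS5A (24.5 to 27.1%) and 51.7% in NJCMS5B, a difference of -25.9 points (-28.0 to -23.8). Only 12 bp separated it from a DMR of Glyma.U013600, which was hyper-methylated. At scaffold_21:1215811-1216507 the level was 20.8% in NJCMS5A and 45.4% in NJCMS5B, a difference of -24.6 points (-27.1 to -22.1). In 3 further DMRs the level of NJCMS5A was near 5%. It was 5.74% against 29.9% at scaffold_21:2469382-2471580, 4.77% against 26.5% at scaffold_21:2439213-2442278, and 4.79% against 26.5% at scaffold_21:1037458-1042148. The last of these was also the longest DMR, with 890 cytosines in 4691 bp.

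Among the increases, 3 besides scaffold_21:94165-97155 were of DMRs with a very low level in NJCMS5B. At scaffold_21:3516110-3518119 the level was 22.4% in NJCMS5A (21.3 to 23.6%) and 1.15% in NJCMS5B (0.896 to 1.49%), a ratio of 19.4. At scaffold_21:1031757-1034016 it was 24.8% in NJCMS5A (23.7 to 25.9%) and 3.70% in NJCMS5B (3.29 to 4.16%). The next intergenic DMR, scaffold_21:1034353-1035351, had the same direction, with 11.3% in NJCMS5A and 0.835% in NJCMS5B. The one after it, scaffold_21:1037458-1042148, had the opposite direction. At scaffold_21:3095168-3097562 the level was 21% in NJCMS5A and 2.18% in NJCMS5B (1.84 to 2.57%). The other 4 named increases, at positions 619638, 1641107, 1343718 and 2100881, started from higher levels of 9.0 to 15.0% in NJCMS5B and reached 27.8 to 34.6% in NJCMS5A.

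The 3 longest DMRs were all hypo-methylated, whereas of the 160 with at least 400 cytosines 79 were lower and 81 higher in NJCMS5A. After the longest DMR came scaffold_21:466141-470222 (4082 bp), with 4.11% in NJCMS5A (3.76 to 4.49%) and a difference of -15.9 points (-16.8 to -15.0), and scaffold_21:6565-10562 (3998 bp), the first DMR of the scaffold, with 5.34% (4.88 to 5.84%) in NJCMS5A and 16.2% in NJCMS5B. The deepest DMR, scaffold_21:1287215-1289209, was hyper-methylated, with 19.3% in NJCMS5A (18.3 to 20.4%) at a depth of 12.1 and 1.26% in NJCMS5B (1.20 to 1.32%) at a depth of 288. It lay 1405 bp from a DMR of Glyma.U013900. This DMR and the last one of the scaffold were the 2 with a depth over 50. In NJCMS5A the greatest depth was 25.2, at scaffold_21:128682-129960, where the level was 4.05% (3.64 to 4.50%) against 14.3% (13.3 to 15.3%) in NJCMS5B. All 26 DMRs named by rule passed also with each cytosine counted once, with adjusted p-values of Fisher's exact test from 5.70e-54 to 1.59e-04. So did 500 of all 541, and those that did not pass held at most 94 cytosines. The smallest of the 26 held 189, so their pass follows from how they were picked and adds no support.

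Short DMRs held the extremes of level. The highest level of NJCMS5A, 57.9%, was at scaffold_21:1171085-1171300, which has 28 cytosines, against 23.7% in NJCMS5B. The highest level of NJCMS5B, 53.5%, was at scaffold_21:1579591-1579997, against 23.9% in NJCMS5A. At scaffold_21:416136-416216, with 17 cytosines, 0 of 358 calls of NJCMS5B were methylated, which allows a level of up to 0.838% (3 counts of the total), while the level in NJCMS5A was 13.0% (9.33 to 17.7%). With each cytosine counted once, the last of these did not pass (adjusted p 0.498, Fisher's exact test). These 3 DMRs were chosen after their values were seen.

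Hypo- and hyper-methylated DMRs were interspersed along the whole scaffold. In bins of 250 kb that held at least 20 intergenic DMRs, 12 bins in all, the share lower in NJCMS5A ran from 43.3 to 62.5%. The longest gap between intergenic DMRs was 162813 bp (3277921 to 3440735) and held 16 gene-annotated DMRs. Most gaps were short, with a median of 1570 bp.

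**Figure D2:**
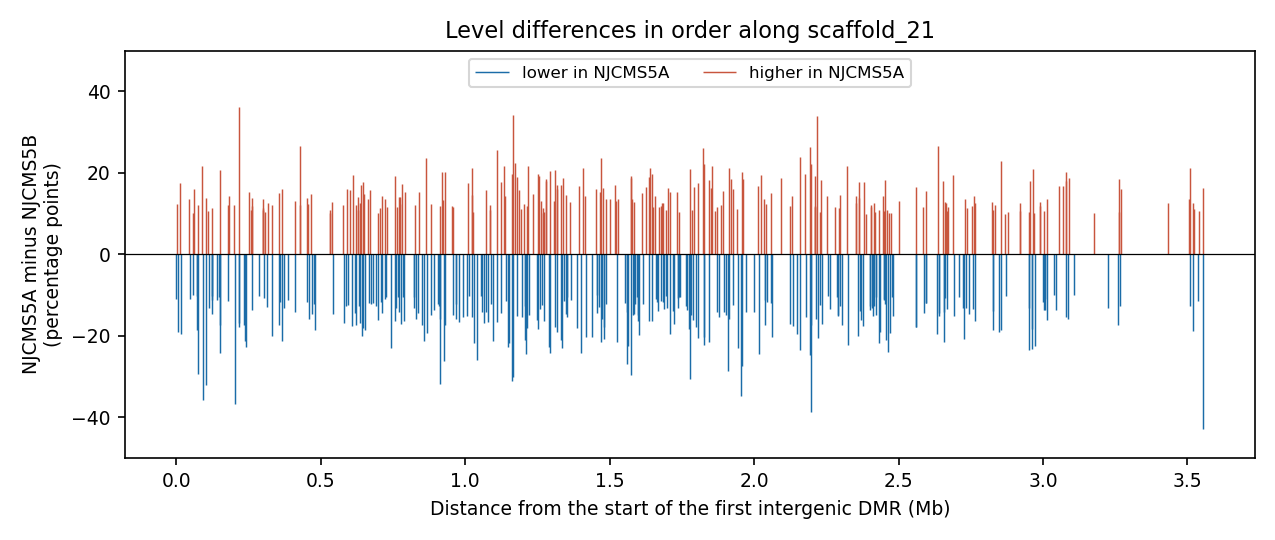
Level difference, NJCMS5A minus NJCMS5B in percentage points (vertical axis), of each intergenic DMR by its distance from the start of the first one in Mb (horizontal axis), with 1 vertical line per DMR. Decreases and increases are interspersed over the 3.56 Mb, and the largest decrease, -42.9 points, is at the far end.

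Neighbouring DMRs more often had opposite than equal directions. Of the 540 pairs of neighbouring intergenic DMRs, 176 had the same direction (32.6%, 28.8 to 36.7%). The share was 15.7% (9.61 to 24.7%) of the 89 pairs less than 100 bp apart, 32.4% (25.3 to 40.4%) at 100 to under 1000 bp, 29.7% (23.0 to 37.5%) at 1000 to under 5000 bp, 45.7% (37.4 to 54.3%) at 5000 to under 20000 bp and 41.4% (25.5 to 59.3%) beyond. DMRs were built from windows of 1000 bp, and the part of the joining of windows in the share at the shortest distance was not tested. At that distance 21.4% (16.4 to 27.4%) of the pairs on other scaffolds and 5 of 5 pairs on the chromosomes had the same direction. At 1000 to under 5000 bp, 55.9% (51.8 to 59.8%) of the unannotated DMRs of other scaffolds had the same direction as their neighbour. Successive pairs share a DMR and DMRs are not replicates, so the intervals of these shares are descriptions and not a test between groups. The gene-annotated DMRs of scaffold_21 had 30.2% (19.5 to 43.5%) at that distance, so the low share was not particular to the intergenic ones.

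**Figure D3:**
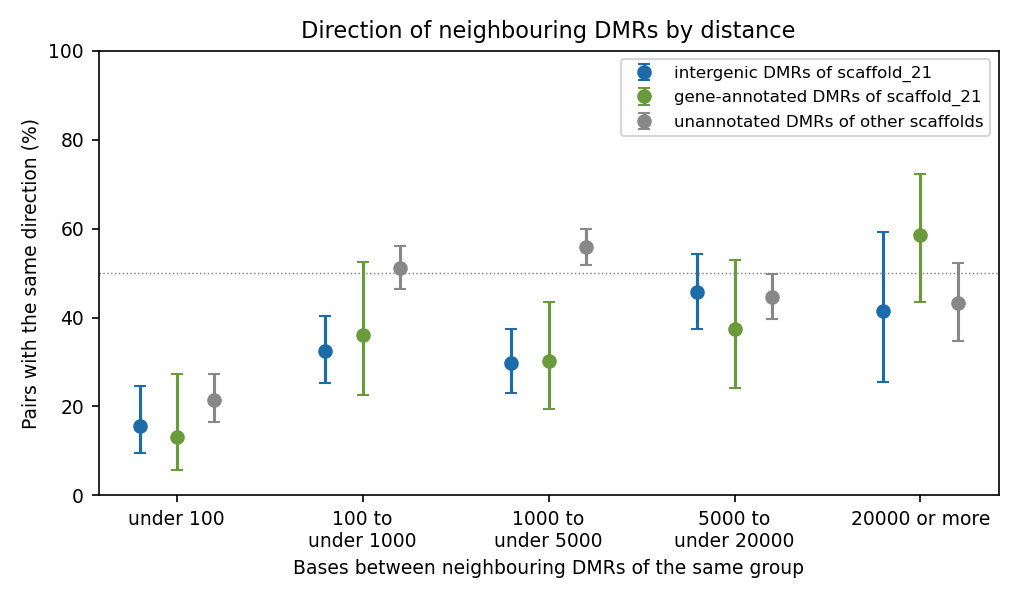
Share of neighbouring DMRs with the same direction (vertical axis, %) by the bases between them (horizontal axis) for 3 groups of DMRs, with Wilson 95% intervals as bars. At 1000 to under 5000 bp the intergenic DMRs of scaffold_21 are at 29.7% and the unannotated DMRs of other scaffolds at 55.9%.

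The change of direction could be abrupt. No base lay between the DMRs of 4 pairs with opposite directions and depths of 10 or more, of which the first 3 by position are named. In the first, the level of scaffold_21:308027-310024 was 14.1% in NJCMS5A and 0.542% in NJCMS5B, and that of scaffold_21:310025-312872 was 2.10% and 12.8%. In the second, the level of scaffold_21:717925-719524 was 24.6% in NJCMS5A and 10.3% in NJCMS5B, and that of scaffold_21:719525-721224 was 9.53% and 23.9%. In the third, the level of scaffold_21:776853-778452 was 12.3% in NJCMS5A and 26.4% in NJCMS5B, and that of scaffold_21:778453-779498 was 24.9% and 10.9%. In each pair the higher level of one DMR was close to the higher level of the next, which was that of the other library. The lower levels of the first pair were less alike, 0.542% (0.378 to 0.777%) and 2.10% (1.79 to 2.45%). The pairs were picked for opposite directions, which by itself puts the higher levels of both libraries side by side.

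The longest alternating run held 16 DMRs between positions 1783924 and 1860320. Its first 4 DMRs had levels of 14.4, 40.5, 14.7 and 20.5% in NJCMS5A and of 45.2, 19.5, 29.6 and 9.73% in NJCMS5B. Its last 4 had levels of 14.4, 33.8, 16.9 and 32.5% in NJCMS5A and of 34.7, 15.6, 38.4 and 16.2% in NJCMS5B. The run was picked for its alternation, which by itself makes the high level of one library fall beside the high level of the other in the next DMR. The longest run of 1 direction held 7 hypo-methylated DMRs, between positions 1747129 and 1784620.

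The likeness of a level of one library to that of the other in the next DMR was measured over all neighbours, after it had been noticed in the data. Spearman's rho of the NJCMS5A level of a DMR with the NJCMS5B level of the preceding one was 0.582 over the 540 pairs. With the roles of the libraries exchanged, it was 0.227. Over the 307 DMRs with a depth of 10 or more in each library both were lower, at 0.315 and 0.125. Neighbours were then pairs of these 307 DMRs, which can lie farther apart. Opposite directions of neighbours enter the values of both pairings. Their part in each value, and in the gap between the pairings, was not tested. Depth gave a gap of the same sign, with a rho of 0.475 for the first pairing and 0.239 for the exchanged one. Gaps of this sign were not particular to scaffold_21. Neighbouring unannotated DMRs of other scaffolds had 0.284 and 0.0797 for the level and 0.239 and 0.137 for depth. The DMRs of the chromosomes had -0.108 and -0.0358 for the level and 0.128 and 0.0863 for depth. Neighbouring pairs share DMRs and reads of the same libraries, so these values are descriptions without a test.

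For the first pairing the likeness was strongest at a distance of 2 to 3 kb between the centres of the DMRs. This distance was picked for its value. In the 127 pairs of intergenic DMRs at that distance, rho was 0.792 for NJCMS5A at the downstream DMR with NJCMS5B at the upstream one, and 0.315 for the reverse. Within a library, levels at that distance were weakly and inversely related, with a rho of -0.277 in NJCMS5A and -0.178 in NJCMS5B. At shorter distances the 2 pairings differed little, with 0.185 and 0.202 under 1 kb (41 pairs) and 0.563 and 0.498 from 1 to 2 kb (133 pairs). From 3 to 4 kb the values were 0.501 and 0.111 (99 pairs), and from 6 to 7 kb 0.0431 and 0.147 (89 pairs). The scaffold was also cut into 4 equal stretches, with 63, 83, 81 and 33 pairs at 1 to 3 kb, a wider range than above. In each, rho was higher in the first pairing, at 0.695, 0.722, 0.670 and 0.677, than in the reverse, at 0.413, 0.266, 0.495 and 0.304. The stretches come from the same libraries and are not replicates.

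The gene-annotated DMRs of scaffold_21 had like values at 2 to 3 kb, 0.816 and 0.386 over 50 pairs. The unannotated DMRs of other scaffolds had 0.220 and 0.0240 over 368 pairs. Over pairs of called DMRs of scaffold_21 at 2 to 3 kb, rho was thus higher with NJCMS5A downstream of NJCMS5B than with the roles exchanged. Only called DMRs enter these values, and each differs between the libraries, so neighbours of opposite direction give a positive rho by themselves. Levels between the called DMRs were not examined. Whether the reads of both libraries were placed on the same coordinates, and what part an offset would have in the level differences, was not tested.

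**Figure D4:**
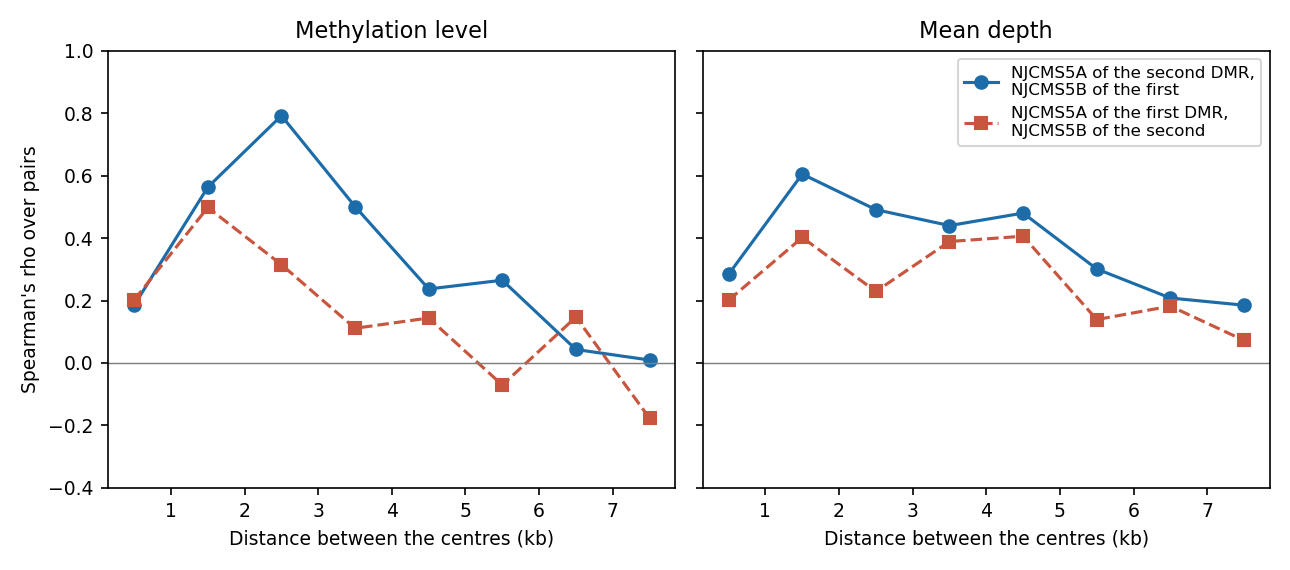
Spearman's rho over pairs of intergenic DMRs of scaffold_21 (vertical axis) by the distance between their centres in kb (horizontal axis), for the methylation level (left) and the mean depth (right). Points with a solid line pair NJCMS5A at the second, downstream DMR with NJCMS5B at the first, and squares with a dashed line pair them the other way. The solid line of the level peaks at 0.792 at 2 to 3 kb, where the dashed line is at 0.315.

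Depth moved with the direction of the difference. The depth was greater in NJCMS5A in 231 of the 293 hypo-methylated DMRs (78.8%) and in 117 of the 248 hyper-methylated ones (47.2%). Median depths were 12.1 in NJCMS5A and 10.5 in NJCMS5B for the former and 11.1 in both libraries for the latter. The share of DMRs lower in NJCMS5A was 23.5% (9.56 to 47.3%) of the 17 DMRs with a log2 ratio of depths (NJCMS5A over NJCMS5B) under -0.5, and 87.9% (77.1 to 94.0%) of the 58 with a ratio over 0.5. The shares rose in every class in between.

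Spearman's rho of the log2 ratio of depths with the level difference was -0.412 over the 541 intergenic DMRs, and -0.217 over those with a depth of 10 or more in each library. It was -0.156 over the 311 DMRs of the chromosomes, -0.117 over the 209 gene-annotated DMRs of scaffold_21 and 0.164 over the 2190 unannotated DMRs of other scaffolds. Within a library, deeper DMRs had lower levels, with a rho of -0.435 in NJCMS5A and -0.446 in NJCMS5B. The depth of NJCMS5A was almost unrelated to the level of NJCMS5B (rho -0.0377), and that of NJCMS5B weakly to the level of NJCMS5A (rho -0.147). The depths of both libraries in the same DMR had a rho of 0.317, which lay between the 0.695 of the DMRs of the chromosomes and the values of the gene-annotated DMRs of scaffold_21 (0.151) and the unannotated DMRs of other scaffolds (0.103). The part of depth in the level differences was not tested.

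**Figure D5:**
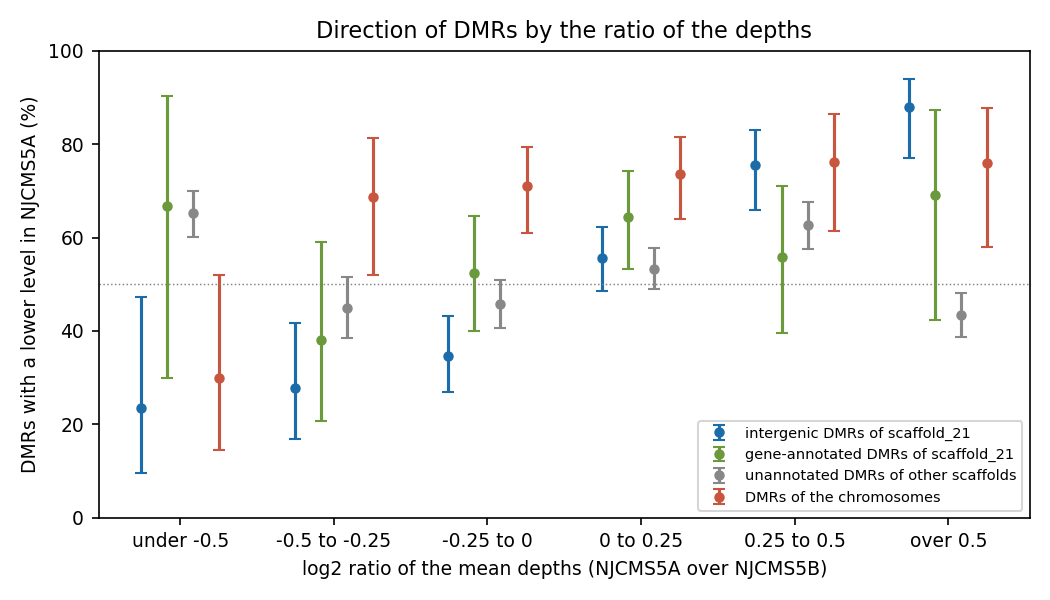
Share of DMRs with a lower level in NJCMS5A (vertical axis, %) in classes of the log2 ratio of the mean depths, NJCMS5A over NJCMS5B (horizontal axis), for 4 groups of DMRs, with Wilson 95% intervals as bars. In the intergenic DMRs of scaffold_21 the share runs from 23.5% in the lowest class to 87.9% in the highest. In the DMRs of the chromosomes it is also lowest in the lowest class, which holds 20 DMRs, and is 68.6 to 76.2% in the others. The unannotated DMRs of other scaffolds run the other way between the end classes, with 65.3% in the lowest and 43.4% in the highest. The gene-annotated DMRs of scaffold_21 show no steady rise, with 66.7% in the lowest class, 38.1% in the next and 69.2% in the highest.

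Compared with the other DMRs, the intergenic ones of scaffold_21 were intermediate in the size of the difference. A size of 20 points or more was reached by 17.6% of them (14.6 to 21%), by 11.5% of the gene-annotated DMRs of the scaffold (7.84 to 16.5%), by 45.7% of the unannotated DMRs of other scaffolds (43.6 to 47.8%) and by 2.25% of the DMRs of the chromosomes (1.09 to 4.57%). Their share lower in NJCMS5A, 54.2%, was below that of the DMRs of the chromosomes, 70.1% (64.8 to 74.9%). It was nearer to the 57.4% (50.6 to 63.9%) of the gene-annotated DMRs of scaffold_21 and the 52.7% (50.6 to 54.8%) of the unannotated DMRs of other scaffolds. DMRs are not replicates, so these intervals are descriptions and not a test between groups.

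Intergenic DMRs had higher levels than those with a gene on the same scaffold. The median level was 15.6% in NJCMS5A and 18.7% in NJCMS5B, where the gene-annotated DMRs had 10.5% and 12.5%. The median of the lower level of a DMR was 10.8% against 4.18%. Gene-annotated DMRs were also longer, with a median of 2079 bp against 1296 bp. Density was alike, at 22.3 cytosines per 100 bp in the intergenic and 22.8 in the gene-annotated DMRs.

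Of the intergenic DMRs, 61 lay within 2000 bp of a gene-annotated DMR, and the median distance to the nearest one was 15760 bp. The near ones were lower in NJCMS5A in 30 of 61 cases (49.2%) and the other 480 in 263 cases (54.8%). Of the 61, 17 (27.9%, 18.2 to 40.2%) had the direction of the nearest gene-annotated DMR. This share was close to the 28.4% (25.3 to 31.8%) over all 749 pairs of neighbouring DMRs of the scaffold, gene-annotated or not. Those pairs lay at all distances, so the comparison is not at like distance. Their share was 13.7% under 100 bp, 33.7% at 100 to under 1000 bp and 29.4% at 1000 to under 5000 bp.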

How the data were processed

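DNA of pooled flower buds was measured in 2 libraries, 1 of NJCMS5A and 1 of NJCMS5B. Per the labels and the study's methods, reads were aligned with Bismark 0.12.5 to the Williams 82 genome, uniquely mapped reads were kept, and the authors called DMRs with swDMR (windows of 1000 bp, steps of 100 bp, Fisher test, FDR up to 0.05, coverage changes from 5). The deposited methylation level is a fraction of the calls, not corrected for unconverted cytosines. The deposited depth is a coverage, the mean number of calls per cytosine, not normalized between libraries. Columns A and B were read as NJCMS5A and NJCMS5B. The authors' p-values, level ratios and level differences, and their GO and KEGG results for genes, were not used. Positions are those of the deposited table.

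Calls were recovered as level times depth times cytosines, and came out whole within 1e-06 for all 3527 DMRs. Fisher's exact test, two-sided, compared these calls for each DMR, and p-values were adjusted over the 3527 DMRs by the Benjamini-Hochberg method. Intervals are 95% Wilson intervals for shares and Newcombe intervals for differences. Tests were checked on simulated data. The scripts ran on Python 3.11.15 with matplotlib 3.10.9, pandas 2.3.3, scipy 1.17.1 and numpy 2.4.6.

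Named DMRs were the 8 largest increases and 8 largest decreases among the 284 with a depth of 10 or more in each library and 100 or more cytosines, the first and last, the 3 longest, the 3 of highest summed depth, the 3 of lowest p and the 3 closest pairs of opposite direction with depths of 10 or more, ties being taken by position. The DMRs and the rules were chosen with earlier results of these data known. Alternatives changed the minimum of the difference, depth and cytosines, the counting of calls, the DMRs near genes and the joining of neighbours.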

Additional observations from a re-analysis of the deposited data

How the results depend on the processing

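With 1 library per line, no spread between replicates and no test of the lines could be had. No paired analysis was possible because each line has 1 library. Depth reached 10 in each library in 307 of the DMRs. With a difference of at least 20 percentage points, 61 intergenic DMRs were lower and 34 higher in NJCMS5A (64.2% lower, median size 22.4 points), rho of the depths was 0.189, and rho of the NJCMS5A level with the NJCMS5B level of the preceding DMR was 0.513. With these 307 DMRs alone (depth 10 or more), 161 were lower and 146 higher, the median size was 13.2 points, 40.5% of neighbours had the same direction, and rho of the depths was 0.215. The Spearman correlation of the levels of neighbours was then 0.315 for the preceding and 0.125 for the following DMR, and rho of the depth ratio with the difference was -0.217. With at least 100 cytosines, rho with the preceding DMR was 0.640. With DMRs of 1 direction joined when less than 1000 bp apart, 24.0% of neighbours had the same direction, and rho was 0.649 for the preceding and 0.354 for the following DMR. With the gene-annotated DMRs of scaffold_21 included, 28.4% of neighbours had the same direction, rho with the preceding DMR was 0.733, and rho of the depth ratio was -0.335. That inclusion, and every alternative for the likeness of neighbours and for the depth ratio, was chosen after seeing the data. The cause of these changes was not tested beyond the DMRs each setting leaves out, joins or adds. The other 48 values of this kind stayed within their interval or within 1.5 times the count; among them are values that a setting of the test cannot change. All 26 named DMRs passed with each cytosine counted once and with Bonferroni adjustment, settings that change the p-value and not the level. Of all 541 intergenic DMRs, 500 and 535 passed, so the pass of the named ones was not particular to them.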
